A study of Homo sapiens with 4 samples.

Results

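The genes described here are 10 transcription factors of the ETS family, chosen by name as ETS1, ETS2, ETV1, ETV4, ETV5, ELK1, ELK3, ELF1, ELF3 and ERF among the 57659 Ensembl genes of the deposited table. All 10 names were found, each with a single Ensembl ID, and all 10 passed the filter on low values used for testing. RNA-seq was made from 786-0 cells, an established human renal cell carcinoma line, in 2 libraries from cells given siRNA against SLFN5 (SLFN5 siRNA 1 and 2) and 2 libraries from cells given a control siRNA (control 1 and 2). The series title ties SLFN5, a Schlafen family gene regulated by interferon, to the motility and invasiveness of these cells, and the comparison asks which transcripts differ when SLFN5 is reduced. No time after transfection, siRNA sequence or clone is given in the labels, and whether the 2 libraries of a group stem from different cultures is not stated, so p-values measure a spread that may be technical.

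ETS factors share a DNA-binding domain that reads a short core, GGAA, and they differ in the domains around it and in how signals reach them. The PEA3 group (ETV1, ETV4 and ETV5) and the ETS group (ETS1 and ETS2) are activators that the RAS and ERK pathway switches on, and they act beside AP-1 at promoters of proteases that degrade the extracellular matrix. The ternary complex factors ELK1 and ELK3 bind DNA with the serum response factor SRF, ELF1 and ELF3 belong to the ELF group, and ERF is a repressor that ERK signalling removes from the nucleus. In kidney, ETV4 and ETV5 are known from the branching of the ureteric bud in the mouse embryo.

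The authors' values are read counts per gene adjusted to a common library size, called equalised counts here. They are relative levels in whole populations of cells, in which fewer cells that express a gene and less RNA per cell cannot be told apart. The read counts behind them could be recovered in full and summed to 17117659 in SLFN5 siRNA 1, 14700669 in SLFN5 siRNA 2, 31905328 in control 1 and 13187517 in control 2. SLFN5 itself stood at 167 and 118 equalised counts in the SLFN5 siRNA libraries against 420 and 353 in the control libraries, a log2 change of -1.45 (SE 0.21, limma adjusted p = 0.000524). Of 10 markers of renal carcinoma and kidney epithelium, 8 were at 10 or more in at least 2 libraries, while CA9, common in clear cell tumours, had 4 reads in all and LRP2 had 0. PAX8 was nearly level, with 3994 and 3392 equalised counts in the SLFN5 siRNA libraries against 4129 and 3726 in the controls. The cadherin CDH6 stood at 13060 and 9823 against 6207 and 2888, CDH16 at 35.8 and 37.2 against 22.1 and 13.8, and VIM at 74343 and 73630 against 104237 and 99893. The summed level of the 10 was 100964 to 103810 in the SLFN5 siRNA libraries and 119370 to 126809 in the controls. This sum was mostly VIM, so its direction is that of VIM and not of the markers as a set. Of 5 leukocyte, 5 endothelial and 3 erythroid markers, 0 reached that level. Of 5 fibroblast markers, 3 did, and the summed level of all 5 was 75.1 to 107 in the SLFN5 siRNA libraries and 96.2 to 164 in the control libraries. The part of these marker levels in the results below was not tested.

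The 10 ETS factors did not move in a common direction. Of the 10 ETS factors, ELF3 rose, ELK1 fell and 8 did not pass an adjusted p of 0.05 (limma, Benjamini-Hochberg over 15640 tested genes). The count of 2 in 10 is to be read against the background, in which 29.6% of all tested genes were called (13.3% higher and 16.3% lower). The values of the SLFN5 siRNA libraries did not overlap those of the control libraries for any of the 10, with 6 higher and 4 lower, and 64.6% of all tested genes shared that separation (30.5% higher and 34.1% lower). An unadjusted limma p under 0.05 was found for 5 of the 10, against 40.6% of all tested genes. Among all calls 2086 were higher and 2544 lower, a split that turned to 2771 higher and 1744 lower when the recovered reads were scaled by library totals alone. With 2 libraries against 2, an exact permutation test of a single gene cannot go below p = 0.333. The median log2 change of the 10 was 0.20, against -0.03 over all tested genes, and their median absolute change was 0.30, against 0.38.

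**Figure D1:**
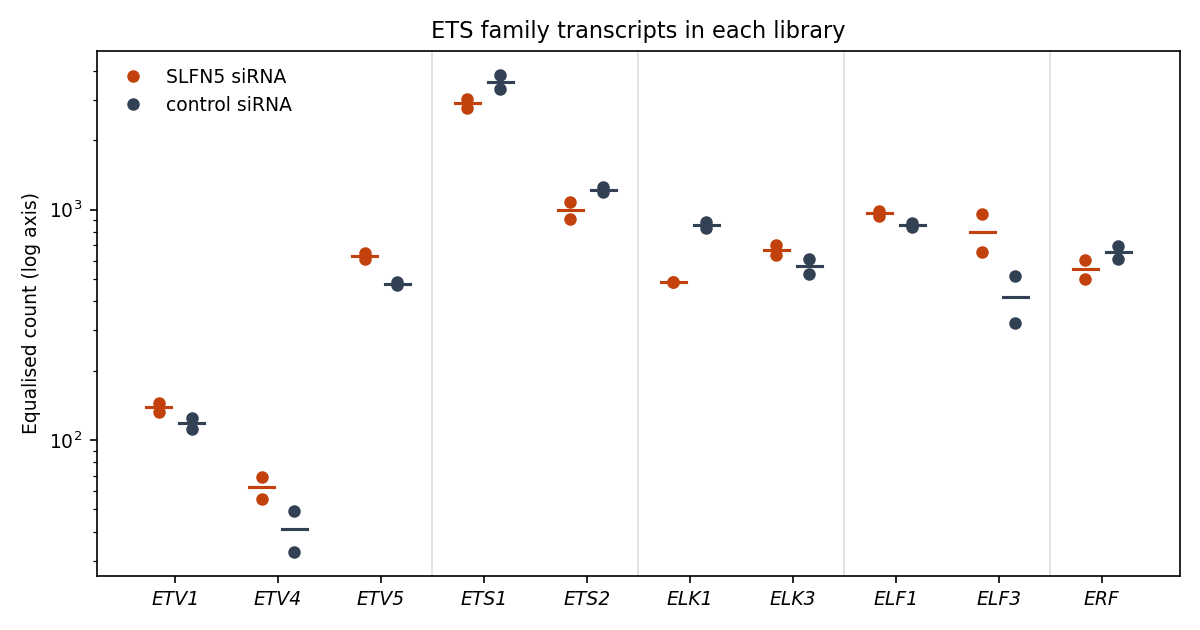
Equalised counts (log axis) of the 10 ETS factors in each library, with SLFN5 siRNA libraries in red and control libraries in dark blue, points for single libraries and bars for group means. ELK1 at 487 and 487 lies well under its controls at 884 and 834, and ELF3 at 953 and 651 lies above its controls at 513 and 321.

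The promoters of the 2 factors that passed the test are shown from RefSeq (build GRCh38.p14), each covering 250 bases before the annotated start and 50 after it, so that the letters an ETS factor or AP-1 would read can be seen. Capitals mark GGAA, the ETS core, on either strand (TTCC where it lies on the other strand). The AP-1 element TGANTCA, also searched on both strands, is in neither.
ELK1 (chrX:47650555-47650854, minus strand): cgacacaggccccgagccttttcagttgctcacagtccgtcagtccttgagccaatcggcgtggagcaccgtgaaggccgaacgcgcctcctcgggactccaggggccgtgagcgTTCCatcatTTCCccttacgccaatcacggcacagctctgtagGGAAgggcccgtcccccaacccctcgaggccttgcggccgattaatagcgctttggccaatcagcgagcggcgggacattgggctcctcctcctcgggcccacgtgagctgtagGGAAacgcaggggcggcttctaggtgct
ELF3 (chr1:202010337-202010636, plus strand): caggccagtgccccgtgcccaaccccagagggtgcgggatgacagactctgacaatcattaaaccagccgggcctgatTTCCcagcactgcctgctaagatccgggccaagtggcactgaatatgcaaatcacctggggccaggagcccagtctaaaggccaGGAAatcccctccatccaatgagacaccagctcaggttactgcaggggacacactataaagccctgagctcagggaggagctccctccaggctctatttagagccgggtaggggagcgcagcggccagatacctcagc
The ELK1 promoter held 4 matches to GGAA and the ELF3 promoter held 2. Of 35116 RefSeq promoters of the same length, 95.5% held GGAA, 17.2% held the longer ETS core CCGGAA, 7.71% held TGANTCA and 1.29% held a CArG box, the SRF element. RefSeq promoters were found for 7 of the 10 factors, 18 in all, and several of a gene's promoters can overlap. CCGGAA was in 3 of the 18, all of ETV1, of which 2 cover almost the same stretch, and TGANTCA was in 0.

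Among the ternary complex factors, ELK1 fell. ELK1 (ENSG00000126767), a target of ERK that binds with SRF at immediate early genes, stood at 487 and 487 equalised counts in SLFN5 siRNA libraries 1 and 2, against 884 and 834 in control libraries 1 and 2. The SLFN5 siRNA libraries were level with each other and both lay far under the controls. The group means were 487 ± 0.104 and 859 ± 35.2 (SD, n = 2 each), a log2 change of -0.82 (SE 0.14, 95% interval -1.11 to -0.52, limma adjusted p = 0.00107) that leaves 0.567 of the control level. The call held in all 14 alternative fits, with adjusted p from 2.60e-06 to 0.0467. Behind these values were 476 and 419 reads in the SLFN5 siRNA libraries and 1519 and 576 in the controls. The SD of the SLFN5 siRNA group is smaller than counting error on such reads, and the SE above comes from a variance that limma moderates over all genes.

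ELK3, the related factor that can act as a repressor until ERK signalling converts it, did not pass. It had 704 and 633 equalised counts in the SLFN5 siRNA libraries against 524 and 610 in the controls. The gap between the nearest libraries of the groups was small beside the spread within them. The log2 change was 0.24 (SE 0.15, 95% interval -0.08 to 0.56, limma adjusted p = 0.249), and it ran from 0.13 without control 1 to 0.35 without control 2. The third human ternary complex factor, ELK4, had 937 and 918 against 652 and 746, a log2 change of 0.41 (SE 0.13, limma adjusted p = 0.0384). That call did not hold when any of the 4 libraries was left out, with adjusted p from 0.0672 to 0.280, or without the intensity trend (0.137).

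ELF3 rose, with the largest change of the 10 when all 4 libraries were used. ELF3 (ENSG00000163435), an epithelial ETS factor that inflammatory cytokines induce in many epithelia, had 953 and 651 equalised counts in SLFN5 siRNA libraries 1 and 2, against 513 and 321 in control libraries 1 and 2. Library 1 was higher than library 2 in each group, and both SLFN5 siRNA libraries were above both controls. The means were 802 ± 213 and 417 ± 135 (SD, n = 2 each), a log2 change of 0.96 (SE 0.23, 95% interval 0.46 to 1.45, limma adjusted p = 0.00856), or 1.94-fold. Without SLFN5 siRNA 1 the log2 change was 0.68 and did not pass (adjusted p = 0.0825), and without control 2 it was 0.62 and passed (adjusted p = 0.0260). In both of these fits the absolute changes of ELK1 (-0.82 and -0.86) and ETV4 (0.77 and 0.90, not past the threshold) were larger than that of ELF3. Without the intensity trend in the variance ELF3 did not pass either (limma adjusted p = 0.133). Over the alternatives that kept all 4 libraries its limma adjusted p ran from 5.32e-07, with the replicate number as a block, to 0.133.

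ELF3 shares 664 bases, 9.23% of its exons, with the antisense gene ELF3-AS1, and the library kit named in the labels does not mark strand. ELF3-AS1 had 36.8 and 31.5 equalised counts in the SLFN5 siRNA libraries against 51.6 and 34.5 in the controls. Over the 4 libraries, the 3 tested genes with a pattern nearest to that of ELF3 (Euclidean distance between log2 values centred on each gene's mean) were RP11-175O19.4 at a distance of 0.06, MAP7 at 0.08 and C7orf13 at 0.08. MAP7, which binds microtubules in epithelial cells, had 403 and 273 equalised counts in the SLFN5 siRNA libraries against 202 and 132 in the controls. In all, 35 genes lay within a distance of 0.2 of ELF3, and 4 libraries are few for such a match.

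ELF1, a broadly expressed activator known from lymphoid genes, did not pass. It had 939 and 989 equalised counts in the SLFN5 siRNA libraries against 872 and 843 in the controls, a log2 change of 0.17 (SE 0.13, 95% interval -0.11 to 0.45, limma adjusted p = 0.353). The groups were close, each with little internal spread. Its exons share 167 bases with those of WBP4 on the other strand, which stood at 214 and 239 in the SLFN5 siRNA libraries against 100 and 110 in the controls. The part of those shared bases in the ELF1 values was not tested.

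In the PEA3 group 0 of 3 members passed, and all 3 had positive log2 changes. ETV5, the most abundant of them per kilobase of exon, had 612 and 646 equalised counts in the SLFN5 siRNA libraries against 470 and 485 in the controls. These groups were tight and clearly apart. The log2 change was 0.40 (SE 0.14, 95% interval 0.09 to 0.71), and the adjusted p of 0.0543 lay just outside the threshold (limma). The call depends on the scaling and model: ETV5 passed in 6 of 14 alternatives, including rescaling by a trimmed mean of M values (log2 change 0.43, adjusted p = 0.0414) and limma-voom on the recovered reads (0.42, adjusted p = 0.0451), and in 0 of the 4 fits that left out a library. Over all alternatives its adjusted p ran from 0.00946 to 0.227.

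ETV4 and ETV1 were the least abundant of the 10 per kilobase of exon. ETV4, first described as PEA3 at the polyoma enhancer, had 55.2 and 69.4 equalised counts in the SLFN5 siRNA libraries against 32.7 and 49.4 in the controls. The nearest libraries of the groups lay close together. Its log2 change of 0.61 (SE 0.34, 95% interval -0.14 to 1.36) did not pass (limma adjusted p = 0.211), and it rested on 54 and 60 reads in the SLFN5 siRNA libraries and 58 and 35 in the controls. The ETV4 change was 0.32 without control 1 and 0.90 without control 2. ETV1, the factor fused to other genes in some prostate cancers and Ewing sarcomas, had 132 and 145 equalised counts against 124 and 112, a log2 change of 0.23 (SE 0.23, 95% interval -0.27 to 0.72, limma adjusted p = 0.493), with 0.15 the lowest value with a library left out (control 2). The wide intervals of both leave room for no change and for a sizeable increase alike.

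The ETS group had negative changes that did not pass. ETS1, the founding member of the family and known for driving protease genes in invading and endothelial cells, was the most abundant of the 10 per kilobase of exon, with 2762 and 3027 equalised counts in the SLFN5 siRNA libraries against 3332 and 3849 in the controls. Every SLFN5 siRNA library was lower than every control library, by a margin similar to the spread within the groups. The log2 change was -0.31 (SE 0.12, 95% interval -0.57 to -0.05, limma adjusted p = 0.0682). ETS2, its nearest relative, had 914 and 1073 against 1191 and 1250, a log2 change of -0.30 (SE 0.13, 95% interval -0.59 to -0.02, limma adjusted p = 0.106). The adjusted p of these factors ran over the 14 alternatives from 0.00351 to 0.475 for ETS1 and from 0.0171 to 0.392 for ETS2, and each passed in 1 of them. With a library left out, the log2 change ran from -0.41 (without control 1) to -0.20 (without control 2) for ETS1 and from -0.42 (without SLFN5 siRNA 2) to -0.19 (without SLFN5 siRNA 1) for ETS2.

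The repressor ERF, which competes with activating ETS factors for the same sites, had 604 and 500 equalised counts in the SLFN5 siRNA libraries against 696 and 607 in the controls. SLFN5 siRNA 1 and control 2 were nearly equal. The log2 change was -0.24 (SE 0.15, 95% interval -0.58 to 0.09, limma adjusted p = 0.270), and it ran from -0.38 without SLFN5 siRNA 1 to -0.11 without SLFN5 siRNA 2.

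**Figure D2:**
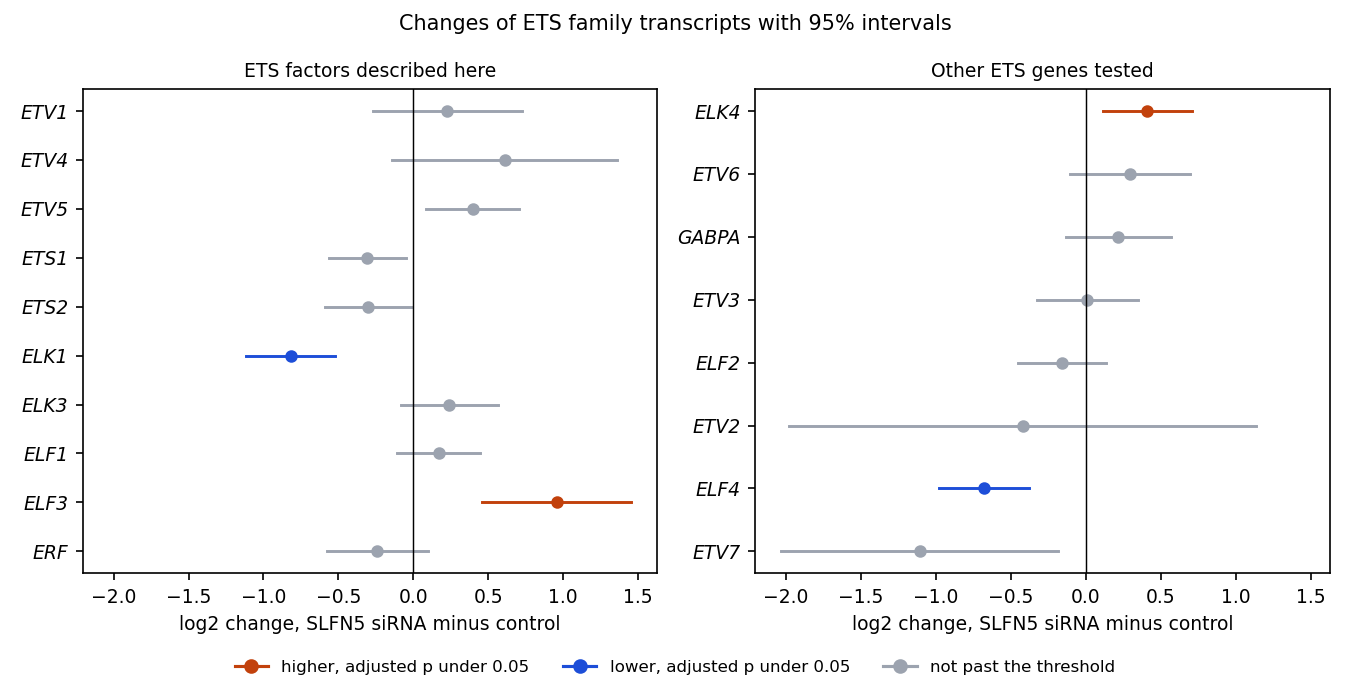
Log2 changes (SLFN5 siRNA minus control) with 95% limma intervals of the 10 ETS factors on the left and of the 8 other tested ETS genes on the right, in red or blue where the adjusted p was under 0.05 and the gene higher or lower. ELK1 (-0.82) and ELF3 (0.96) stand out on the left, ELF4 (-0.68) and ELK4 (0.41) on the right.

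**Figure D3:**
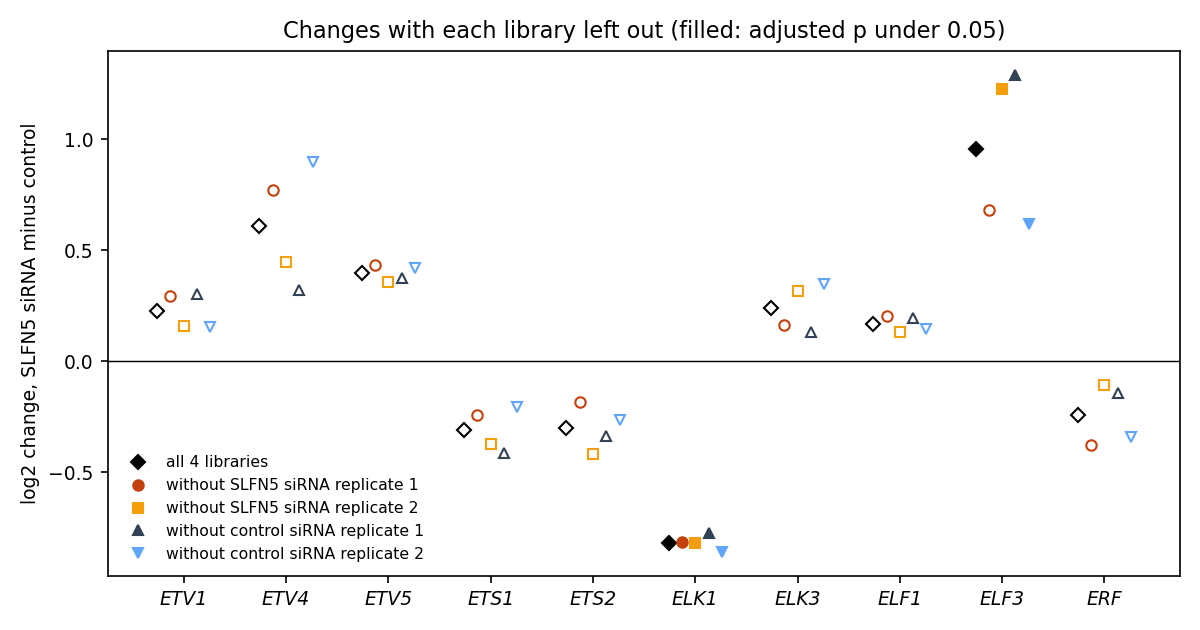
Log2 changes (SLFN5 siRNA minus control) of the 10 factors from all 4 libraries and with each library left out, filled where the adjusted p was under 0.05. ELK1 stays between -0.86 and -0.78, whereas ELF3 moves between 0.62 and 1.29 and loses its call without SLFN5 siRNA 1.

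The levels of the factors were compared per kilobase of annotated exon (GENCODE 29, GRCh38), which is approximate because the submitters' notes name hg19 and the annotation they counted on is not given in the sources used here. In the SLFN5 siRNA libraries ETS1 was highest at 405 ± 26.2 equalised counts per kb (SD, n = 2). ELF1 (222 ± 8.16), ETS2 (216 ± 24.5), ERF (168 ± 22.4), ELK3 (144 ± 10.8), ELK1 (143 ± 0.0306), ELF3 (112 ± 29.6) and ETV5 (108 ± 4.07) followed. ETV4 (17.3 ± 2.78) and ETV1 (14.4 ± 0.968) were lowest. The library ranges of neighbours in this order overlapped for ELF1 with ETS2, for ELK3 with ELK1 and for ELF3 with ETV5, and not for the other neighbours.

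In the control libraries the order was ETS1 (502 ± 51.1 equalised counts per kb), ETS2 (266 ± 9.13), ELK1 (253 ± 10.4), ERF (198 ± 19.0), ELF1 (198 ± 4.71), ELK3 (122 ± 13.1), ETV5 (82.3 ± 1.75), ELF3 (58.0 ± 18.8), ETV1 (12.3 ± 0.906) and ETV4 (11.4 ± 3.27; SD, n = 2 each). Here the ranges of ETS2 and ELK1, of ERF and ELF1 and of ETV1 and ETV4 overlapped, and those of the other neighbours did not. ELK1 thus stood beside ETS2 in the controls and beside ELK3 in the SLFN5 siRNA libraries. Other genes cover 1.89% to 4.70% of the exon bases of ETV4, ETV5, ELK3, ELF1 and ERF in that annotation. For ETV5 this is DGKG on the same strand, with 370 and 477 equalised counts in the SLFN5 siRNA libraries against 341 and 306 in the controls. For ETV4 it is DHX8 on the other strand, with 1222 and 1214 against 1514 and 1305. The part of these shared bases in the ETV5 and ETV4 values was not tested.

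**Figure D4:**
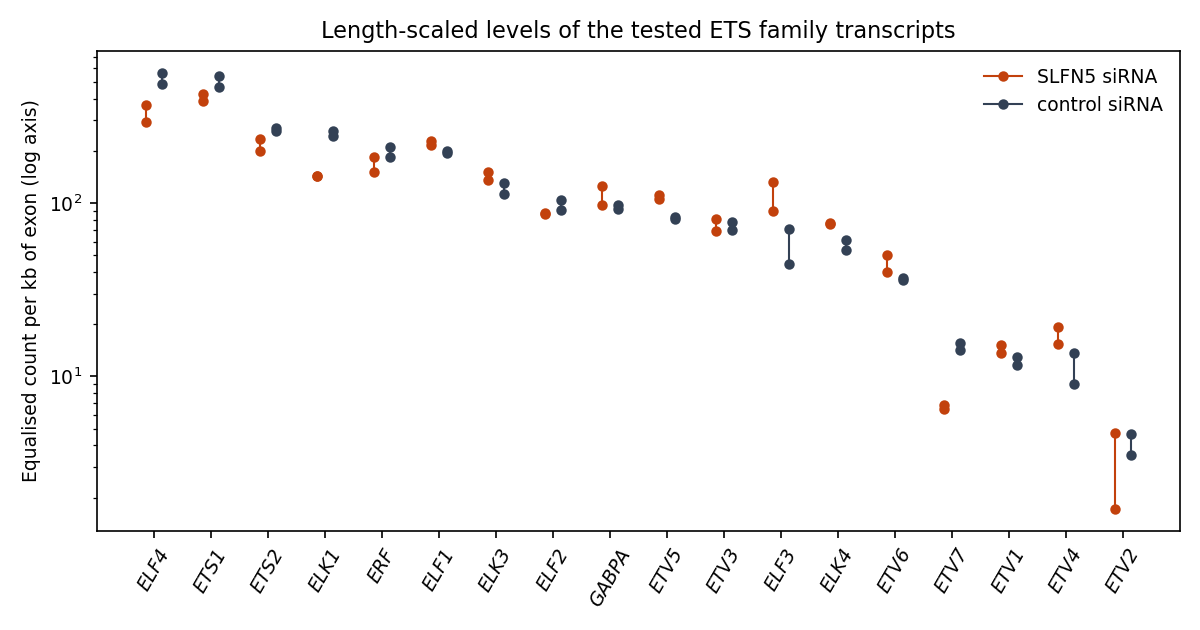
Equalised counts per kilobase of exon (log axis) for the 18 tested ETS genes, ordered by control mean, with both SLFN5 siRNA libraries in red and both control libraries in dark blue, each pair joined by a line. ETS1 at 405 against 502 and ELF4 at 330 against 527 (group means) are the highest, and ETV2, ETV4, ETV1 and ETV7 the lowest.

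The rest of the ETS family held 18 genes, of which 8 could be tested and 10 had 0 to 8 reads over all 4 libraries. Those 10 were the endothelial and blood factors ERG and FLI1, the myeloid and lymphoid factors SPI1, SPIB and SPIC, the epithelial factors EHF, ELF5 and SPDEF, and FEV and ETV3L. ELF3 was therefore the sole member of the epithelium-specific set (ELF3, ELF5, EHF and SPDEF) with more than a few reads, at 2589 in all. Of the 8 tested, ELK4 was called higher, as above, and ELF4 was lower, against the background of 29.6%. ELF4, an activator close to ELF1 that is known from lymphocytes and innate immunity, had 1579 and 1268 equalised counts in the SLFN5 siRNA libraries against 2446 and 2107 in the controls, a log2 change of -0.68 (SE 0.14, limma adjusted p = 0.00339). The call did not hold without the intensity trend (adjusted p = 0.0891), and it held in the other 13 alternatives.

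ETV7 was scarce and had 15.3 and 16.2 equalised counts in the SLFN5 siRNA libraries against 36.8 and 33.6 in the controls, and its log2 change was -1.11 (SE 0.42, limma adjusted p = 0.0690), not past the threshold, though it passed in 2 of 13 alternatives, among them the fit without the intensity trend (0.0420). ETV6, the repressor fused to other genes in leukaemia, had a log2 change of 0.29 (limma adjusted p = 0.256). GABPA, which drives genes of mitochondrial function, had 0.22 (0.345), and ELF2 had -0.16 (0.411). ETV3 had 0.01 (0.969) and ETV2, with 35 reads in all, had -0.42 (0.704). Single libraries move these small changes: GABPA had 0.03 without SLFN5 siRNA 2, ELF2 -0.07 without control 1 and -0.25 without control 2, and ETV6 0.13 without SLFN5 siRNA 1 and 0.46 without SLFN5 siRNA 2.

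Partners and regulators of ETS factors changed in both directions. Of 17 such genes, all tested, 5 were higher and 3 lower (background 29.6%), with a median log2 change of 0.08, against -0.03 over all tested genes. CIC, or capicua, a repressor of ETV1, ETV4 and ETV5, had 825 and 715 equalised counts in the SLFN5 siRNA libraries against 563 and 436 in the controls, a log2 change of 0.63 (limma adjusted p = 0.0126). Its partner ATXN1, which strengthens that repression, had 612 and 582 against 340 and 336, a log2 change of 0.82 (limma adjusted p = 0.00181). The CIC call was lost without control 2 (adjusted p = 0.137) and without SLFN5 siRNA 1 (0.0759), whereas ATXN1 passed in all 14 alternatives.

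The partner of ELK1 moved as well. SRF had 947 and 805 equalised counts in the SLFN5 siRNA libraries against 1198 and 1191 in the controls, a log2 change of -0.45 (limma adjusted p = 0.0229). Removing control 1 (adjusted p 0.0881), control 2 (0.0964) or SLFN5 siRNA 2 (0.104) ended the SRF call, as did scaling by library totals alone (0.0900). MKL2, an actin-regulated coactivator that competes with ternary complex factors for SRF, had 400 and 386 against 220 and 213, a log2 change of 0.86 (limma adjusted p = 0.00296), and passed in all 14 alternatives.

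Both listed subunits of the core binding factor, a DNA-binding partner of ETS1, were lower. CBFB had 2241 and 2727 equalised counts in the SLFN5 siRNA libraries against 3864 and 4005 in the controls, a log2 change of -0.67 (limma adjusted p = 0.00181). RUNX1 had 514 and 542 against 675 and 766, a log2 change of -0.44 (limma adjusted p = 0.0351). The RUNX1 call was lost whichever library was removed (adjusted p 0.0566 to 0.296) and after rescaling by a trimmed mean of M values (0.0542), by median ratios (0.0523) or by library totals (0.128). GABPB2, which pairs with GABPA, had a log2 change of 0.73 (limma adjusted p = 0.0257), lost without control 1 (log2 change 0.49, adjusted p = 0.207) and without SLFN5 siRNA 2 (0.128). The kinase RPS6KA3, activated by ERK, had one of 0.62 (limma adjusted p = 0.00174). Among these partners and regulators, SRF, RUNX1 and RPS6KA3 lie outside the naming rule and were chosen after their values were seen.

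Genes listed as targets were called in both directions. Of 9 genes of matrix proteases and the urokinase system listed as ETS and AP-1 targets, whose promoters were not searched here, 7 were tested, 3 were higher and 1 lower. Over all tested genes 13.3% were higher and 16.3% lower. The median log2 change of the 7 was 0.67, against -0.03 over all tested genes. The collagenases MMP13 (log2 change 3.46, limma adjusted p = 2.74e-05) and MMP1 (1.89, 5.50e-05) and the membrane-type MMP14 (0.72, 0.000762) rose. The urokinase receptor PLAUR fell to 1290 and 1618 equalised counts in the SLFN5 siRNA libraries, against 2101 and 2396 in the controls (log2 change -0.63, limma adjusted p = 0.00485). Of 11 SRF and ternary complex factor targets, 7 were tested and IER2 rose (log2 change 0.61, limma adjusted p = 0.00528) while JUNB fell (-0.40, limma adjusted p = 0.0232), with a median of -0.24. That is 2 calls in 7, near the 29.6% of all tested genes. FOS, FOSB, EGR1 and NR4A1 were tested on only 44 to 90 reads in all and did not pass, so the list says little about them. Removing control 1 (adjusted p 0.0738), control 2 (0.150) or SLFN5 siRNA 2 (0.0952) ended the JUNB call, as did library totals alone (0.111).

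Genes repressed by capicua or induced by the PEA3 group likewise split. Of 11, 10 were tested, with 1 higher and 3 lower, against 29.6% called over all tested genes (13.3% higher and 16.3% lower). The median log2 change was -0.19, against -0.03 over all tested genes. PHLDA1, a growth regulator induced by ERK signalling, stood at 3866 and 4238 equalised counts in the SLFN5 siRNA libraries against 1319 and 1637 in the controls (log2 change 1.46, limma adjusted p = 2.61e-05). Cyclin D1 (CCND1) stood at 13013 and 11025 against 19275 and 20137 (log2 change -0.72, limma adjusted p = 0.000891). The ERK pathway inhibitors SPRED1 and SPRY2 had log2 changes of -0.51 (limma adjusted p = 0.0142) and -0.65 (0.0386). SPRED1 did not pass without control 1 (0.0946) or SLFN5 siRNA 1 (0.0654) or with library totals alone (0.0602), and SPRY2 did not pass without control 2 (0.306) or SLFN5 siRNA 2 (0.176), nor under any of the 3 rescalings (0.0540 to 0.0723) or limma-voom (0.0598). Without the intensity trend, 5 of the 18 calls in these 4 lists held, those of MKL2, ATXN1, MMP1, MMP13 and PHLDA1. Over all tested genes, 1091 of 4630 calls held in that fit.

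**Figure D5:**
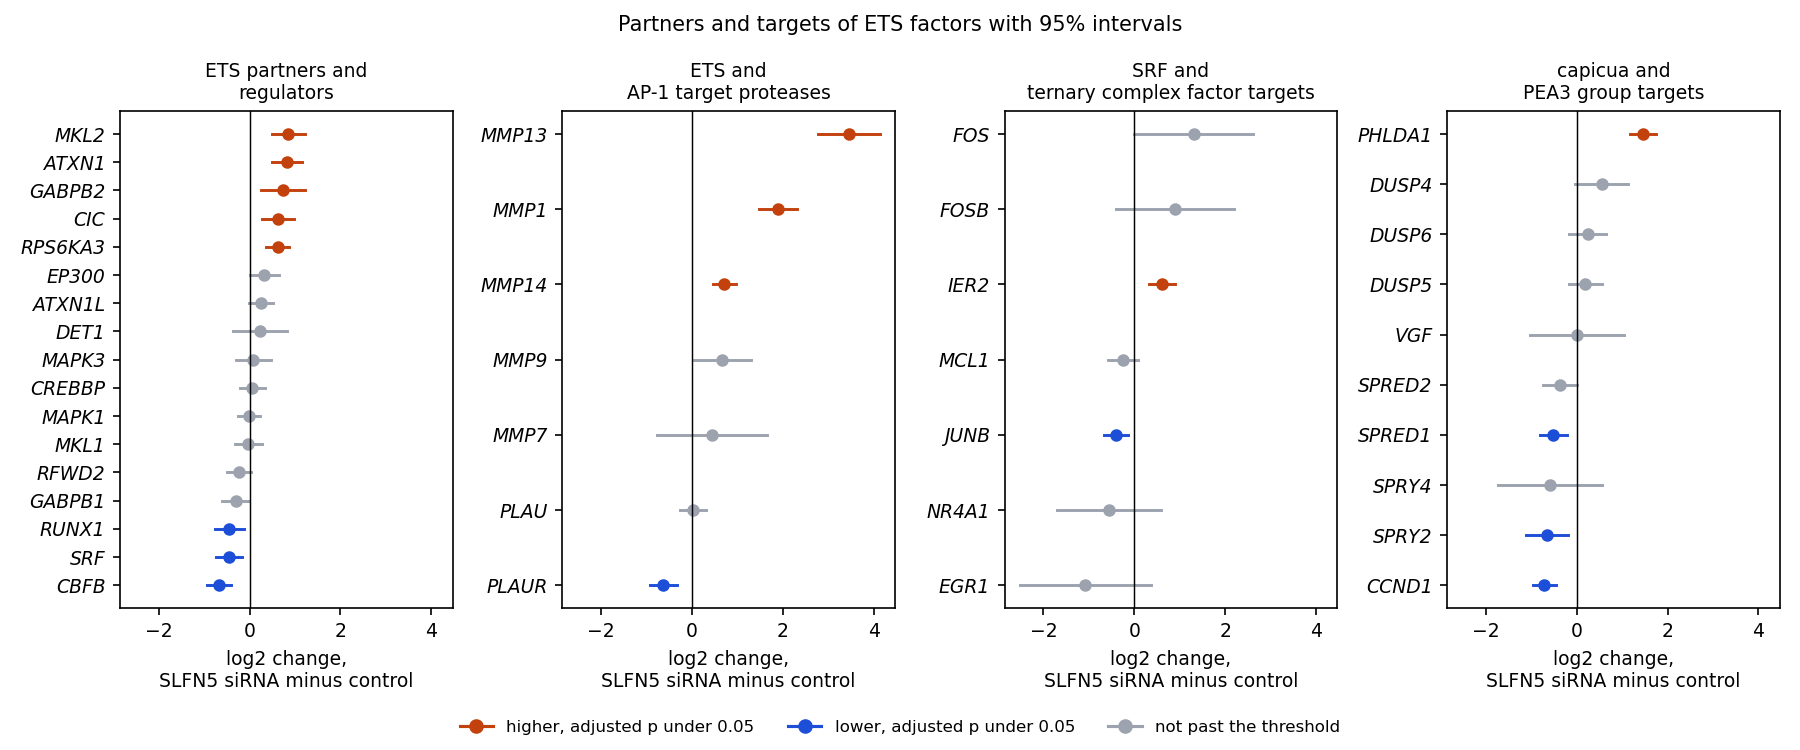
Log2 changes (SLFN5 siRNA minus control) with 95% limma intervals for the tested members of 4 lists of ETS partners and targets, in red or blue where the adjusted p was under 0.05 and the gene higher or lower. Calls lie on both sides of 0 in every panel, from 3.46 for MMP13 to -0.72 for CCND1.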

How the data were processed

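RNA was measured in 4 libraries of 786-0 cells, 2 with SLFN5 siRNA and 2 with control siRNA. Per the labels' protocols, libraries were made from poly(A) RNA with the TruSeq RNA v2 kit, which does not mark strand, and sequenced from a single end (HiSeq 2500), and the submitters' processing notes name hg19 and edgeR. The deposited signal per gene, made by the authors, is not whole and has the form of counts quantile-adjusted to a common library size, edgeR's pseudo-counts. Inverting that adjustment (dispersion 0.0162) returned whole reads for 100% of 230636 values (tolerance 1e-06), and for 100% of values in simulated counts. Aligner, counter and annotation version are not named and so not given in the sources used here. A note on design mentions triplicates, and 4 libraries were analysed.

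Genes at 10 or more in at least 2 libraries were tested (15640) with limma 3.58.1 in R 4.3.3 on log2(value + 1), group alone, with an intensity trend (prior df 9.60, residual df 2), two-sided, Benjamini-Hochberg over all tested genes, threshold 0.05. Fold changes on this scale understate the change of low genes. The fit was also run on simulated counts for this comparison (15523 genes). It called 90% of genes set 2-fold higher, 82% set to 0.5, 30% set to 1.5 and 24% set to 0.67. Smaller changes were thus often missed there. The simulation had 50 genes at each of these folds and a common dispersion for all genes, whereas 4630 genes were called in the data. Its rates therefore do not carry over to the data. Intervals are 95%, unadjusted. Where a symbol had more than 1 Ensembl ID (ATXN1, MMP3 and MMP13), that with the highest mean was used. The members and lists were chosen with earlier results of these data known. All 10 members, the called ETS genes and the 5 largest called changes of each other list were named. The remaining ETS genes and SRF, RUNX1, RPS6KA3, FOS, FOSB, EGR1 and NR4A1 were also named, outside this rule. Scalings, pseudocounts, filters, limma-voom, a replicate block and leaving out each library were the alternatives.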

Additional observations from a re-analysis of the deposited data

How the results depend on the processing

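None of the 10 factors changed sign in any of the 14 alternatives, but most of these could not change it. The groups did not overlap for any of the 10, so only the rescalings and limma-voom could have done so. ELK1 and SLFN5 also kept their calls in all 14 alternatives. Without the intensity trend the count of called genes was 1182, against 4630, with 56.9% of calls higher, against 45.1%. The counts were 1 for the 10 factors (ELF3 lost its call at 0.96) and 1 for the other ETS genes (ETV7, in place of ELF4 and ELK4). They were 2 for partners and regulators, 2 for proteases, 0 for SRF and ternary complex factor targets and 1 for capicua and PEA3 targets. In that fit 4 of the 7 tested SRF targets had an unadjusted limma p under 0.05. So did 3 of the 10 factors and 5359 of all 15640 tested genes. Limma-voom called 2 of the SRF targets. With library totals alone the median log2 change of all tested genes was 0.09, against -0.03, with 2771 higher and 1744 lower calls, against 2086 and 2544. The SRF list then had 1 call and the capicua list 2, and ETV5 passed at 0.52. ETV5 also passed with a minimum mean of 50 (0.40), a trimmed mean of M values (0.43), median ratios (0.43) and limma-voom (0.42). Leaving out each library gave 2941 to 3951 called genes (2941 without control 2), 1 to 2 of the 10 factors, 1 of the other ETS genes in every case, 5 to 6 partners, 1 to 2 SRF targets and ELF3 changes of 0.62 to 1.29. The uncalled ETV2 and ETV3 changed sign there. ETV2 passed the filter in only 2 of these fits, with -0.61 without control 2 and 0.20 without SLFN5 siRNA 2. ETV3 ran from -0.10 to 0.12 (-0.07 without control 1 and -0.10 without SLFN5 siRNA 2). In the fits without a control library the prior degrees of freedom were infinite, so their p-values may be too small, and the lone library is assumed to vary like the pair. Reads limit ETV4 most, with 207 over 4 libraries. The labels give same-numbered libraries a common number and do not say whether they share a culture (correlation of their deviations 0.19, over 15640 genes). With that number as a replicate block, 6703 genes and 5 of the 10 factors passed, ETS1 (-0.31), ETS2 (-0.30) and ETV5 (0.40) besides ELK1 and ELF3.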
